A study of Ginkgo biloba with 7 samples.

Results

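The miRNAs miR166 and miR165 and the genes listed as their targets were followed in ovules of Ginkgo biloba, a gymnosperm whose mature ovule exudes a drop that captures pollen. The target genes were those paired in the target list with a name numbered miR166 or miR165 and with no miRNA of another number. This gave 37 of the 43456 genes in the expression table. The miRNA side comprised all 26 names carrying these numbers among the 279 names of the small RNA table. The rule used the names in the lists and no measured level, but it was set with earlier results of these data known.

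The later stage, called PN, was the pollinated ovule 1 day after pollination. The earlier stage, called PD, was the mature ovule in the act of secreting its drop. All ovules came from trees of the Fozhi cultivar grown outdoors, and the labels do not say whether the ovules of a library were pooled over trees. The series labels 2 RNA sequencing samples per stage, but 2 columns of the gene table share a name and could not be assigned, so 1 library per stage was used. Small RNA sequencing had 1 library per stage, and a mixture of ovules at 2 stages carried the list of targets. No unpollinated ovule of the later stage was among the samples, so pollination and the time elapsed cannot be told apart. With 1 library per stage in each comparison, differences below lie between libraries, have no replicate error and were not tested. Intervals given for read counts cover counting error only and take each read as counted under 1 name. If reads were counted under several names, intervals for sums over names are too narrow.

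In flowering plants miR166 and miR165 are near-identical relatives that guide cleavage of mRNAs for class III homeodomain-leucine zipper (HD-ZIP III) transcription factors. These factors set the upper side of leaves, vascular tissue and, in Arabidopsis, the growth of ovule integuments. A miRNA precursor folds into a hairpin, and each side, or arm, can give a small RNA; for miR166 and miR165 the regulatory strand usually comes from the 3p arm, and the 5p arm gives its less abundant partner. Argonaute proteins carry the strand that is kept, and AGO10 of Arabidopsis holds miR166 and miR165 back from their targets. The files do not pair the Ginkgo gene IDs with gene names, so none of the 37 genes is called an HD-ZIP III gene here, and markers of ovule or pollen cells could not be read.

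Of the reads counted to miRNA names, 1129198 in PN and 774387 in PD, the 8 names with most reads in the whole table all belonged to miR166. Each name carries the code of the plant in which it was described, such as ath for Arabidopsis thaliana, osa for rice, gma for soybean and zma for maize. Names marked 3p held 343664 reads in PN and 226064 in PD over 8 names. Names with no arm mark held 565189 reads in PN and 388168 in PD over 12 names, and their arm is not stated. Names marked 5p held 2090 reads in PN and 414 in PD over 6 names. The 3p and unmarked names therefore carried nearly all reads of the family, and the 5p names a small remainder. Some unmarked names had nearly the same counts as 3p names, such as cpa-miR166e and zma-miR166h-3p. The sums of the 3p and of the unmarked names may therefore hold some of the same reads.

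The 5p names stood apart from the others in the comparison of the stages. They made up 0.185% of counted reads in PN (95% interval 0.177 to 0.193, exact Clopper-Pearson) and 0.0535% in PD (0.0484 to 0.0589), a ratio of 3.46 (3.11 to 3.86). The 3p names made up 30.4% in PN and 29.2% in PD, a ratio of 1.04 (1.037 to 1.048). The unmarked names made up 50.1% in PN and 50.1% in PD, with a ratio of 0.999 (0.994 to 1.003). The share of the 5p names was thus over 3 times as high in PN, and that of the 3p names slightly higher. Several 3p names had near-equal counts, so the interval of their sum may be too narrow. The largest 3p name alone had a ratio of 1.04 (1.032 to 1.050). Since the family makes up most of the counted reads, the small ratios depend on the denominator: relative to reads outside the family they were 3.69 for 5p, 1.11 for 3p and 1.07 for unmarked names.

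**Figure D1:**
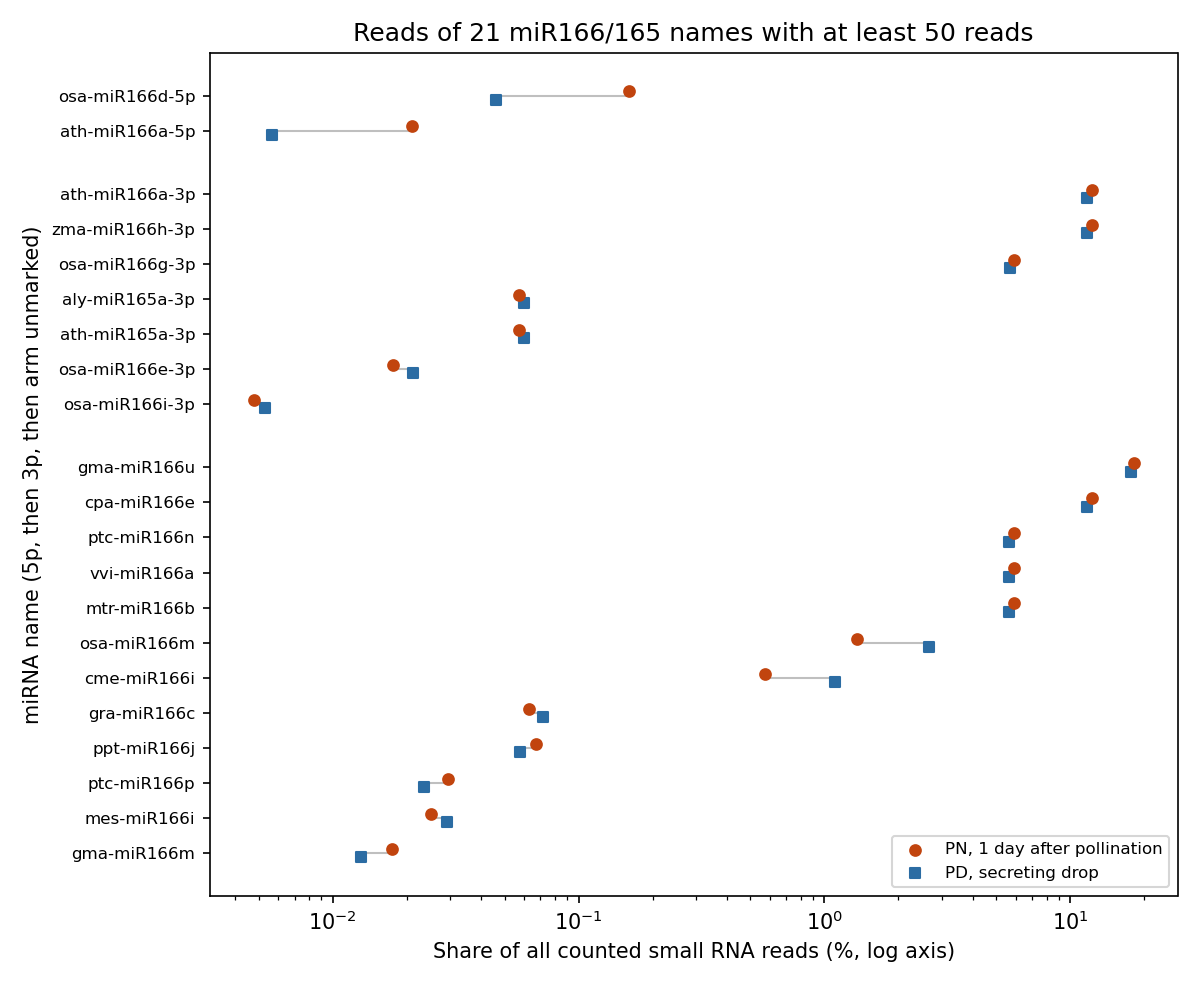
Share of all counted small RNA reads, in percent on a log axis, for the 21 names of miR166 and miR165 with at least 50 reads over both libraries; circles are the PN library, squares the PD library, and names run from 5p through 3p to unmarked. The 2 names marked 5p lie well to the right in PN, osa-miR166m and cme-miR166i lie to the left in PN, and the abundant names nearly coincide.

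Among names, 21 of the 26 had at least 50 reads over both libraries and were compared singly. A name counted as higher or lower where its ratio of shares was at least 2 in either direction with an interval excluding 1. By this rule 2 names were higher and 0 lower in PN; over all 127 names with at least 50 reads, 8.66% were higher and 7.09% lower. With 21 names, a count of 2 lies near that background. Both were marked 5p. The name osa-miR166d-5p had 1815 reads in PN and 358 in PD (ratio 3.48, 95% interval 3.10 to 3.91). The name ath-miR166a-5p had 237 reads in PN and 44 in PD (ratio 3.69, 2.67 to 5.22). A further 5p name, osa-miR166b-5p, had 34 reads in PN and 11 in PD and was under the read minimum. The remaining 5p names were close to empty, with 1 and 1 reads for ath-miR166e-5p, 2 and 0 for sly-miR166c-5p, and 1 and 0 for osa-miR166h-5p in PN and PD. A count of 0 allows a share of up to 3 reads, which is 3.87 in PD in TPM, the deposited read count scaled to the total of the table.

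A pair of unmarked names differed in the other direction. The name osa-miR166m had 15373 reads in PN and 20566 in PD, 1.95-fold lower in PN by share (95% interval 1.91 to 1.99). The name cme-miR166i had 6498 reads in PN and 8547 in PD, 1.92-fold lower (1.86 to 1.98). Together they held 2.40% of the reads of the family in PN and 4.74% in PD. Both lay just inside the 2-fold limit, and no other name of the family was at least 1.5-fold lower; over all 127 names 12.6% were. Without this pair the family held 78.7% of counted reads in PN and 75.6% in PD, a ratio of 1.04 (1.038 to 1.045).

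The other 17 names with at least 50 reads lay within 1.5-fold. Of all 21, 5 had an interval that included equal shares. The most abundant name, gma-miR166u, had 203966 reads in PN and 136538 in PD, with a ratio of 1.02. The next 3 names had nearly equal counts, between 137632 and 137780 reads in PN and between 90353 and 90770 in PD; they were ath-miR166a-3p, zma-miR166h-3p and cpa-miR166e. A further 4, osa-miR166g-3p, ptc-miR166n, vvi-miR166a and mtr-miR166b, held 66470 to 66702 reads in PN and 43533 to 43805 in PD. The ratios of these 7 names ran from 1.04 to 1.05.

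Whether a read was counted under several names is not stated, and the sums were therefore also formed with fewer names. With names whose counts agree within 1% in both libraries taken once, the family comprised 20 names, 435588 reads in PN and 302823 in PD. These reads were 38.6% in PN and 39.1% in PD of the unchanged total of counted reads, which still held the names left out. With all 26 names summed the share was 80.7% in PN and 79.4% in PD. The ratio was 0.986 (95% interval 0.982 to 0.991) instead of 1.02 (1.013 to 1.02). Because the names left out stayed in the total, this crossing of equality cannot be read as a change of direction. The sum of the 5p names was unaffected by taking near-equal names once, since none of them had such a near-equal partner.

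The names of miR165 were scarce beside those of miR166. The names aly-miR165a-3p and ath-miR165a-3p both had 647 reads in PN and 464 in PD, so they cannot be told apart by their reads. Taken once, miR165 held 0.0573% of counted reads in PN and 0.0599% in PD, with a ratio of 0.956 (95% interval 0.847 to 1.08), which includes equal shares.

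The balance of the arms was set beside that of other families with both arms marked and at least 50 reads on the less abundant one. For miR166 and miR165 together, 0.608 reads of 5p names were counted per 100 reads of 3p names in PN (95% interval 0.582 to 0.635) and 0.183 in PD (0.166 to 0.202), a 3.32-fold higher balance in PN. Counting near-equal names once gave 1.02 in PN and 0.306 in PD, again 3.32-fold higher. The miR390 names, which in other plants trigger small RNAs against auxin response factors, had 22.6 reads of 3p names per 100 of 5p names in PN (21.1 to 24.3) and 4.17 in PD (3.40 to 5.06). The miR396 names, regulators of growth-regulating factors elsewhere, had 47.2 in PN (45.9 to 48.6) and 48.3 in PD (46.5 to 50.2). The less abundant arm was thus higher in PN for miR166 and miR165 and for miR390, while the intervals for miR396 overlapped.

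**Figure D2:**
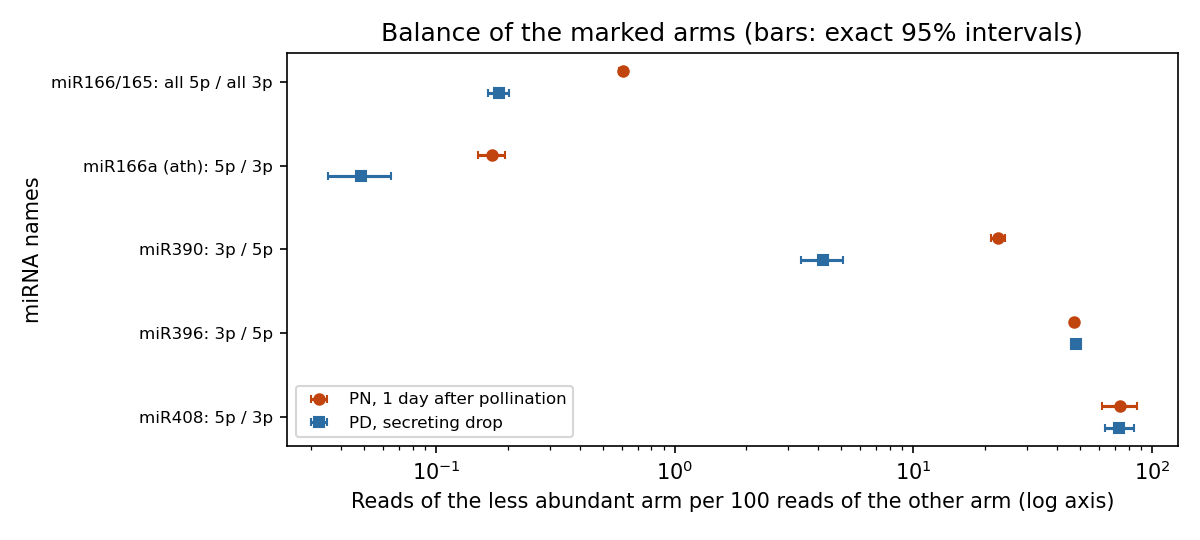
Reads of the less abundant marked arm per 100 reads of the other arm, on a log axis, in PN (circles) and PD (squares), with exact 95% intervals for counting error. The balance of miR166 and miR165 was 0.608 in PN and 0.183 in PD and that of miR390 22.6 in PN and 4.17 in PD, while miR396 and miR408 had nearly the same balance in both libraries.

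The target list joined 20 of the 26 names to genes and left 6 without any. The family had 61 pairs with 52 genes, of which 15 genes were also listed for a miRNA of another number and 37 were not. The 37 genes took part in 42 pairs with 16 names. Names with nearly the same reads had unlike numbers of pairs. The name ath-miR166a-3p, second in reads, had no listed target, and neither had zma-miR166h-3p, whereas cpa-miR166e, with nearly the same counts as both, was listed with 8 genes, 3 of them among the 37. Conversely osa-miR166k-3p, with 0 reads in PN and 3 in PD, was listed with 4 genes, 3 of them among the 37. Names under 50 reads were the sole listed partners of 10 of the 37 genes, and 10 genes were paired with a name of at least 100000 reads.

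Most genes rested on 1 name. A single name was listed for 34 of the 37 genes, 2 names for 1 gene, and 3 names for 2 genes. The genes with 3 names were Gb_18245, paired with aly-miR165a-3p, gma-miR166u and ppt-miR166j, and Gb_22761, paired with ath-miR165a-3p, gma-miR166u and ppt-miR166j. They were also the only members listed with names of both miR165 and miR166. The gene with 2 names was Gb_10866, listed with osa-miR166b-5p and osa-miR166h-5p. Gb_18245 and Gb_22761 were the genes shared by gma-miR166u and ppt-miR166j, which is 2 of the 6 members of gma-miR166u and both of ppt-miR166j. No other pair of names shared more than 1. The names aly-miR165a-3p and ath-miR165a-3p, with the same reads, shared no member, so the number of names is not read as strength of support.

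The target genes were mostly well expressed in ovules. Levels are given as FPKM, fragments per kilobase of gene scaled to the size of the library. Of the 37 genes, 36 were above 0 FPKM in both libraries, and 25 (67.6%) were at 20 FPKM or more in PN and 25 in PD. That level was reached by 18.4% of all genes of the expression table in PN and 18.1% in PD. The target list was itself deposited with ovules, so this contrast with all genes is not independent of the list. The median rank of the 37 genes, counted from the highest level, was 4871 in PN and 4105 in PD. One gene, Gb_30716, was listed at 0 in both libraries, and Gb_34922 had 0.327 FPKM in PN and 0.456 in PD. These 2 fell below the mean of 1 FPKM required for the comparison of stages, which left 35 genes. That requirement was met by 49.0% of all genes, but by 88.4% of the 902 genes listed for any miRNA. Those compared among the 902 had a median of 43.2 FPKM in PN and 37.9 in PD. Such levels were thus not particular to the members.

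The members with the highest levels were few and held most of the signal. Gb_10866 had 876 FPKM in PN and 999 FPKM in PD, at rank 131 in PN and 100 in PD. Gb_41617, paired with gma-miR166u, had 589 FPKM in PN and 847 FPKM in PD. Gb_26152, paired with ath-miR166a-5p, had 194 FPKM in PN and 1357 FPKM in PD. These were the top 3 in PD, while in PN Gb_26507, with 291 FPKM, took the place of Gb_26152. The top 3 genes of each library made up 51.8% of the summed FPKM of the 37 genes in PN and 65.0% in PD. That sum was 3390 FPKM in PN and 4928 FPKM in PD; without Gb_26152 it was 3195 and 3571 FPKM, so a single gene accounted for most of the gap.

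**Figure D3:**
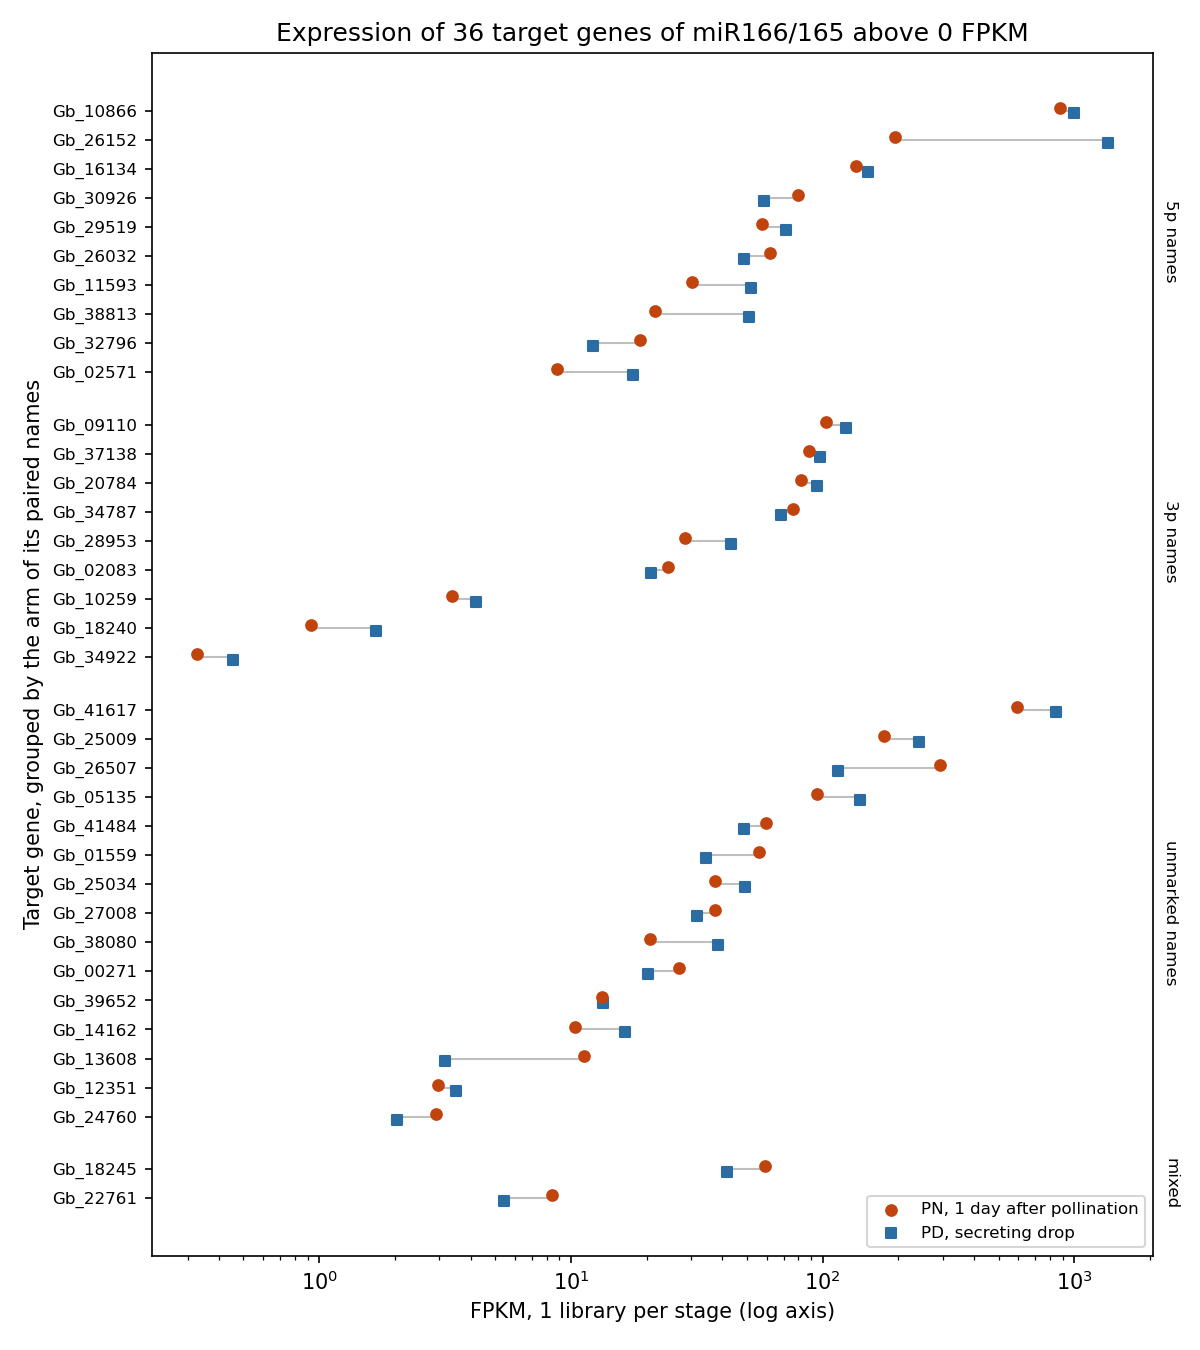
FPKM on a log axis of the 36 target genes above 0, with the PN library as circles and the PD library as squares, grouped by whether the paired names are marked 5p, 3p, unmarked or mixed (3p and unmarked). Most pairs of points lie close together; Gb_26152 and Gb_38813 lie clearly left in PN, and Gb_26507 and Gb_13608 clearly right.

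Most target genes had similar levels at both stages. Levels were set on a log2(FPKM + 1) scale, on which genes near 1 FPKM appear to change less than they do, and a gene counted as higher or lower from a difference of 1, that is 2-fold. Of the 35 genes compared, 2 were higher and 2 lower in PN and 31 within 2-fold. Over all 21308 genes compared, 9.27% were higher and 6.86% lower; the members' 5.71% in each direction lies near that background. At a limit of 1.5-fold, 3 members were higher and 6 lower, beside 22.7% and 15.7% of all genes; 26 of the 35 (74.3%) lay within it, against 61.6% of all genes. The median difference of the members was -0.18, against 0.11 over all genes, and 21 of 35 lay below the latter median.

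The largest difference was that of Gb_26152, lower in PN. Its 194 FPKM in PN and 1357 FPKM in PD gave a difference of -2.80 on the log2 scale, 6.96-fold lower. It stood at rank 65 of all genes in PD and at rank 867 in PN. Gb_38813, paired with osa-miR166b-5p, was lower with 21.7 FPKM in PN and 51.0 FPKM in PD, a difference of -1.20 (2.29-fold). Both lower genes were listed with 5p names. They were 2 of the 10 genes listed with 5p names alone (20%), beside 6.86% of all genes compared. A difference between arms was not tested. In bulk ovules, fewer cells of a type and less RNA per cell cannot be told apart.

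The higher genes were paired with abundant unmarked names. They were 2 of the 15 genes listed with unmarked names alone (13.3%), which lies near the 9.27% of all genes compared. Gb_26507, paired with gma-miR166u, had 291 FPKM in PN and 115 FPKM in PD, a difference of 1.34 (2.53-fold). Gb_13608, paired with cpa-miR166e, had 11.3 FPKM in PN and 3.16 FPKM in PD, a difference of 1.56 (2.96-fold). Inside the limit, the nearest member on the lower side was Gb_02571 at -0.93, with 8.79 FPKM in PN and 17.6 in PD, and the nearest on the higher side was Gb_01559 at 0.67, with 55.6 FPKM in PN and 34.5 in PD. Just outside lay Gb_38813 on the lower side and Gb_26507 on the higher. Rescaling by the median of ratios, which puts the median gene near 0, brought Gb_02571 to -1.04 and so gave 3 lower genes. Of the 35 members, 2 were then higher and 3 lower, beside 7.22% and 8.41% of all genes, so these counts lie near the background. Among all genes beyond 2-fold, 57.5% were higher in PN as deposited and 46.2% after that rescaling.

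**Figure D4:**
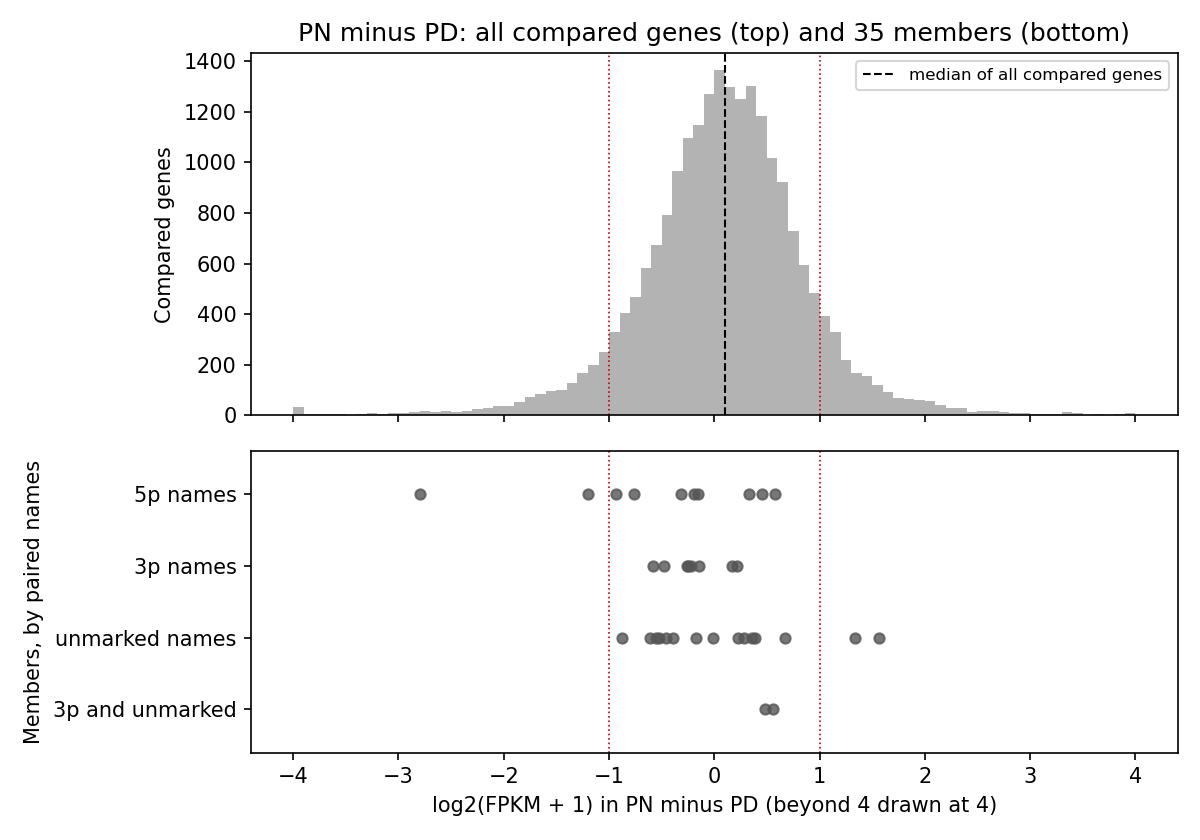
Difference in log2(FPKM + 1), PN minus PD, for all 21308 compared genes (histogram, upper panel) and for the 35 members by their paired names (points, lower panel); dotted lines mark the 2-fold limit and the dashed line the median of all genes at 0.11. The 5p group of 10 holds both members below the lower limit (20%, against 6.86% of all genes). The unmarked group of 15 holds both members above the upper one (13.3%, against 9.27% of all genes).

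The members were then read by the arm of their names. Most reads of 5p names lay with osa-miR166d-5p (1815 in PN, 358 in PD), which had no listed target. The 10 genes listed with 5p names alone had a median difference of -0.25, with 7 below 0 and 3 above. Among them, only the genes of ath-miR166a-5p were paired with a name of at least 50 reads. The higher share of the 5p names in PN was thus mostly that of a name without listed genes. Apart from the 2 lower genes, Gb_11593, paired with sly-miR166c-5p, had 30.2 FPKM in PN and 52.2 in PD (-0.77), and Gb_02571, paired with ath-miR166e-5p, stood at -0.93. Above 0 were Gb_26032 with 61.8 FPKM in PN and 48.9 in PD, Gb_30926 with 80.1 and 58.4, and Gb_32796 with 18.8 and 12.3. The genes of the 5p names therefore went in both directions. This held also within ath-miR166a-5p, which was listed with Gb_26152 at -2.80, Gb_29519 at -0.32 (57.2 FPKM in PN, 71.7 in PD) and Gb_26032 at 0.33. Its one other listed gene, also listed for miR8155 and so outside the 37, had 303 FPKM in PN and 1087 FPKM in PD (-1.84).

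Of the 10 genes listed with 3p names alone, 8 were compared. All 8 lay within 2-fold, with a median of -0.23 and 6 below 0. Among the genes of ath-miR165a-3p, Gb_28953 had 28.4 FPKM in PN and 43.1 in PD (-0.58), Gb_02083 had 24.4 and 20.9 (0.22), and Gb_18240 had 0.924 and 1.68 (-0.48). Gb_34787, paired with aly-miR165a-3p, had 76.4 FPKM in PN and 68.0 in PD (0.17), and Gb_10259, with the same partner, 3.37 in PN and 4.18 in PD (-0.25). The genes of osa-miR166k-3p that were expressed, Gb_09110 and Gb_37138, had 103 and 88.6 FPKM in PN, against 124 and 97.9 FPKM in PD. Gb_20784, paired with osa-miR166e-3p, had 81.8 FPKM in PN and 95.2 in PD. None of these differences reached 1.5-fold on the log2(FPKM + 1) scale.

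The 15 genes listed with unmarked names alone had a median of -0.0079, with 7 above 0 and 8 below. Within gma-miR166u, the most abundant name, 6 of the 37 genes were listed and took both signs. Gb_26507 was at 1.34, Gb_27008 at 0.22 (37.4 FPKM in PN, 31.8 in PD), Gb_25034 at -0.40 (37.3 in PN, 49.4 in PD) and Gb_41617 at -0.52. The genes of cpa-miR166e also differed among themselves: Gb_25009 had 176 FPKM in PN and 241 in PD (-0.46), Gb_00271 had 26.8 and 20.3 (0.38), and Gb_13608 stood at 1.56. The genes of cme-miR166i, a name lower in PN, were Gb_14162 with 10.3 FPKM in PN and 16.4 in PD (-0.61) and Gb_12351 with 2.97 and 3.48 (-0.18). The genes of gma-miR166u and those of cpa-miR166e thus lay on both sides of 0.

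Other members paired with unmarked names include several of moderate level. Of the genes of ptc-miR166p, Gb_05135 had 95.2 FPKM in PN and 140.3 in PD (-0.55), Gb_39652 had 13.3 and 13.4 (-0.0079), and Gb_01559 stood at 0.67. Gb_38080, the gene of ptc-miR166n, had 20.5 FPKM in PN and 38.4 in PD (-0.87). Gb_41484 and Gb_24760, listed with gra-miR166c, had 59.6 and 2.91 FPKM in PN, against 48.9 and 2.05 FPKM in PD.

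The 2 genes listed with 3 names were alike in their difference and unlike in level. Gb_18245 had 58.9 FPKM in PN and 41.8 FPKM in PD, a difference of 0.48. Gb_22761 had 8.42 FPKM in PN and 5.40 FPKM in PD, a difference of 0.56. Both were higher in PN without reaching 2-fold. Gb_16134, listed with ath-miR166e-5p, had 136 FPKM in PN and 152 FPKM in PD (-0.15). Gb_10866, the member with the highest mean, was at -0.19.

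The lists of other families, chosen by the same rule, were read beside these genes. The 78 compared genes listed for miR396 alone had a median difference of 0.25, with 8 higher (10.3%) and 5 lower (6.41%) in PN. Over all compared genes the median was 0.11, with 9.27% higher and 6.86% lower, so these counts lie near the background. The 46 of miR160 and miR167 had a median of 0.062, with 1 higher (2.17%) and 2 lower (4.35%), and the 24 of miR390 a median of 0.18, with 2 higher (8.33%) and 3 lower (12.5%). The members' median of -0.18 was below these, and below the 0.068 of the 751 compared genes listed for other numbers alone. The median level was 37.4 FPKM in PN and 48.9 in PD for the members, against 52.6 in PN and 41.2 in PD for miR396, 43.4 in PN and 44.9 in PD for miR160 and miR167, and 32.8 in PN and 30.7 in PD for miR390.

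The 15 genes shared with other numbers were read apart from the 37. Of the 11 that were compared, 3 were higher (27.3%) and 1 lower (9.09%) in PN, beside 9.27% and 6.86% of all compared genes, and their median difference was 0.40. The higher genes were Gb_23185 at 2.81, Gb_24945 at 1.75 and Gb_10910 at 1.66, and the lower was Gb_36678 at -1.84. Whether the shared genes differ from the 37 was not tested. With the shared genes included, the family list of 46 compared genes had 5 higher and 3 lower genes and a median of -0.075. The shared genes cannot be assigned to miR166 or miR165 alone, since each is also listed for at least 1 other miRNA.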

How the data were processed

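The deposited gene table gives FPKM values that the authors computed; TopHat2 2.0.12 and Cufflinks 2.1.1 are named in the submitters' processing notes, while build and annotation were not given in the sources used. It has 4 columns of values, of which 2 carry the same header, PD2, so these 2 columns were not used and 1 library per stage was compared. limma, planned for replicated libraries, was therefore not run. FPKM gives no absolute depth; the worth of 1 fragment at low values put the relative depth of PN over PD at 1.18. The deposited miRNA table gives raw read counts and TPM, which the authors scaled to all reads counted there. The target list, deposited with the mixed ovules, is taken to come from the degradome; of its 1092 rows 8 repeat another, leaving 1084 pairs of names and genes without scores.

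Genes averaging at least 1 FPKM were compared as log2(FPKM + 1). Ratios of shares have exact conditional binomial 95% intervals, computed with scipy 1.17.1. The fold call was tried on simulated levels with large set changes and no noise, which cannot measure false calls between single libraries. The intervals were tried on independent simulated counts, which does not cover reads counted under several names. Genes named in the text were those with a mean of at least 20 FPKM, beyond or nearest the 2-fold limit, or with most names; other members were added after their values were seen. The members and lists were chosen with earlier results of these data known.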

Additional observations from a re-analysis of the deposited data

How the results depend on the processing

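No paired analysis was possible because each stage had 1 RNA-seq library whose column name was unambiguous; leaving out a library in turn was not run for that reason. The counts of members higher and lower in PN stayed at 2 and 2 with a pseudocount of 0.1, without the FPKM filter and with a mean FPKM of at least 5. The limit of 1.5-fold gave 3 higher and 6 lower. Including targets shared with other numbers gave 5 higher and a median of -0.075. Median-of-ratios scaling gave 2 higher and 3 lower, beside 7.22% and 8.41% of all genes. It gave a median of -0.28, while the median of all genes moved from 0.11 to near 0 by construction. Names at least 2-fold higher remained 2 under each other denominator and numbered 3 with a minimum of 10 reads; 0 were lower in each case. The ratio of the 5p names ran from 3.46 to 3.69. With reads outside miR166 and miR165 as the denominator, the ratio was 1.11 for 3p names, 1.07 for unmarked names and 1.08 for the family. With the largest name alone it was 1.02 for unmarked names and for the family. Taking near-equal names once, an alternative chosen after seeing the data, gave 0.984 for unmarked names and 0.986 for the family. The total of counted reads still held the names left out, so these values do not give a direction. Depth limits the names under 50 reads, and genes near 1 FPKM.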
